A study of Mus musculus with 6 samples.

Results

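The 8 genes described here are ones that mark interleukin-17-producing γδ T cells, called γδ T17 cells: the receptor constant genes Trdc, Trgc1, Trgc2 and Trgc4, the scavenger receptors Scart1 and Scart2, the transcription factor Sox13 and the kinase Blk. They were taken by symbol, 8 of the 25075 in a table of raw counts, and were selected on their values in this same comparison, so their levels are given as a description with no test. The study sequenced bulk RNA from group 3 innate lymphoid cells (ILC3s), lymphocytes without an antigen receptor, of the mouse small intestine. All mice were on the B6 background and carried floxed Batf alleles (Batf fl/fl). The 3 control libraries, labelled WT, came from mice without Cre (PLZF-Cre-), and the 3 Batf-deficient libraries, labelled cKO, from mice with PLZF-Cre (PLZF-Cre+). PLZF is a factor of ILC precursors that some γδ T cells also make. Each library held 2000 cells sorted as Lin-CD90.2+KLRG1-, with 2 ng of RNA put into Smart-seq2, a full-length protocol. The labels list no lineage antibodies, so whether the gate removed γδ T cells is not known, and they give no age, sex or litter.

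γδ T cells carry a T cell receptor made of a γ and a δ chain, each a variable segment joined to a constant gene. Those that make interleukin-17 acquire this ability in the thymus and settle in skin, gut, lung and other barrier tissues, where many use the Vγ4 or the Vγ6 segment, the latter paired with Vδ1 (gene Trdv4). ILC3s share several type 17 genes with them, and innate lymphocytes can also transcribe γ and δ constant genes without making a receptor, so these transcripts by themselves do not show a γδ T cell.

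The γ constant genes are shown first, because how alike they are limits how far their counts can be told apart. The stretch below starts at coding base 289 in each gene and is where their lengths differ. It ends at base 386 in Trgc1, 371 in Trgc2 and 440 in Trgc4. Capitals mark bases that are not the same in all 3 genes or stand against a gap.
Trgc1: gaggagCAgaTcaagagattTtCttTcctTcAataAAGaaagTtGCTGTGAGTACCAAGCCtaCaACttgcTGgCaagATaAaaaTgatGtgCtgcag
Trgc2: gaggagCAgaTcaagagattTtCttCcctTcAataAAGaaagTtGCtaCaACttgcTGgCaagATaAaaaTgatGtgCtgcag
Trgc4: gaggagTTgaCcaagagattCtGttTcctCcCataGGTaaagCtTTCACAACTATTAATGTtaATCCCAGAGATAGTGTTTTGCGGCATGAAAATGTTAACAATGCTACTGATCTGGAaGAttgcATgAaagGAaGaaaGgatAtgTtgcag
Over their aligned coding bases, Trgc1 and Trgc2 were 97.4% identical (487 of 500 bases, with 15 more in a gap), while Trgc1 and Trgc4 were 75.53% identical (389 of 515). Of the 50-base windows of the transcripts, 34.17% in Trgc1 and 25.43% in Trgc2 occurred without a mismatch in another transcript, and none did in Trgc4, Scart1, Scart2, Sox13 or Blk. Reads of Trgc1, Trgc2 and the low-count copy Trgc3 may therefore have been exchanged by the counting, which leaves the Trgc2 values uncertain. In the mm10 genome the constant genes lie on chromosome 13, with Trgc1 at chr13:19214103-19217024 (+), Trgc2 at chr13:19304649-19307551 (-) and Trgc4 at chr13:19344558-19352756 (+), and Trdc lies at chr14:54142851-54148868 (+).

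The libraries held between 8228513 and 17334207 counts. Values are CPM, counts scaled to library size, after TMM scaling unless stated otherwise. Batf, the targeted gene, stood at 15.1, 15.3 and 18.9 CPM in the libraries labelled WT. In those labelled cKO it stood at 38.2, 41.2 and 41.2 CPM, so it did not read lower there. Counts per gene do not tell which exons were read, so they cannot show whether the floxed part was lost. Scaled instead to the lymphoid genes Il7r, Lck, Ets1 and Thy1 of the same library, Batf was lower in the libraries labelled cKO (log2 fold change -1.34, adjusted p = 6.14e-06, edgeR). With that scaling 89% of all genes tested were called lower and their median was -2.61. Batf thus fell less than the median gene, and its fall there does not show a loss of Batf. Other contents differed as widely. Pancreatic acinar genes took 10.4% to 10.8% of counts in the libraries labelled WT and at most 0.000712% in the others, epithelial genes 1.60% to 1.70% against at most 0.0525%, and 8 heat shock genes at most 0.178% against 4.70% to 5.02%. Xist averaged 0.900 CPM in the libraries labelled WT and 229.6 CPM in the others, while the Y-linked Ddx3y was present in both (89.2 and 101.7 CPM). These contents fall along the same line as the genotype labels, so what each contributes to a difference between the groups cannot be told apart. For this reason each gene is given both with TMM scaling and against the lymphoid genes, whose geometric mean was 93.0 ± 4.36 CPM (SD, n = 3) in the libraries labelled WT and 577.3 ± 17.5 CPM (SD, n = 3) in those labelled cKO, 6.21-fold more. Thy1 encodes CD90, on which the cells were sorted, and all 4 reference genes are also made by T cells.

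Of the 8 members, 7 read higher in the libraries labelled cKO with TMM scaling, by 7.56-fold to 129.9-fold on group means, and Sox13 read lower. The groups did not overlap for any of the 8. Without overlap, 34.6% of the 15261 genes tested were higher and 36.5% lower, and 64.4% were called changed, 30.2% higher and 34.1% lower (edgeR, adjusted p under 0.05), so a lack of overlap was common in this comparison. Together the 8 genes took 0.0154% to 0.0187% of counts in the libraries labelled WT and 0.109% to 0.119% in the others. In bulk RNA, a smaller number of cells of a type and less RNA from each of them cannot be told apart.

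**Figure D1:**
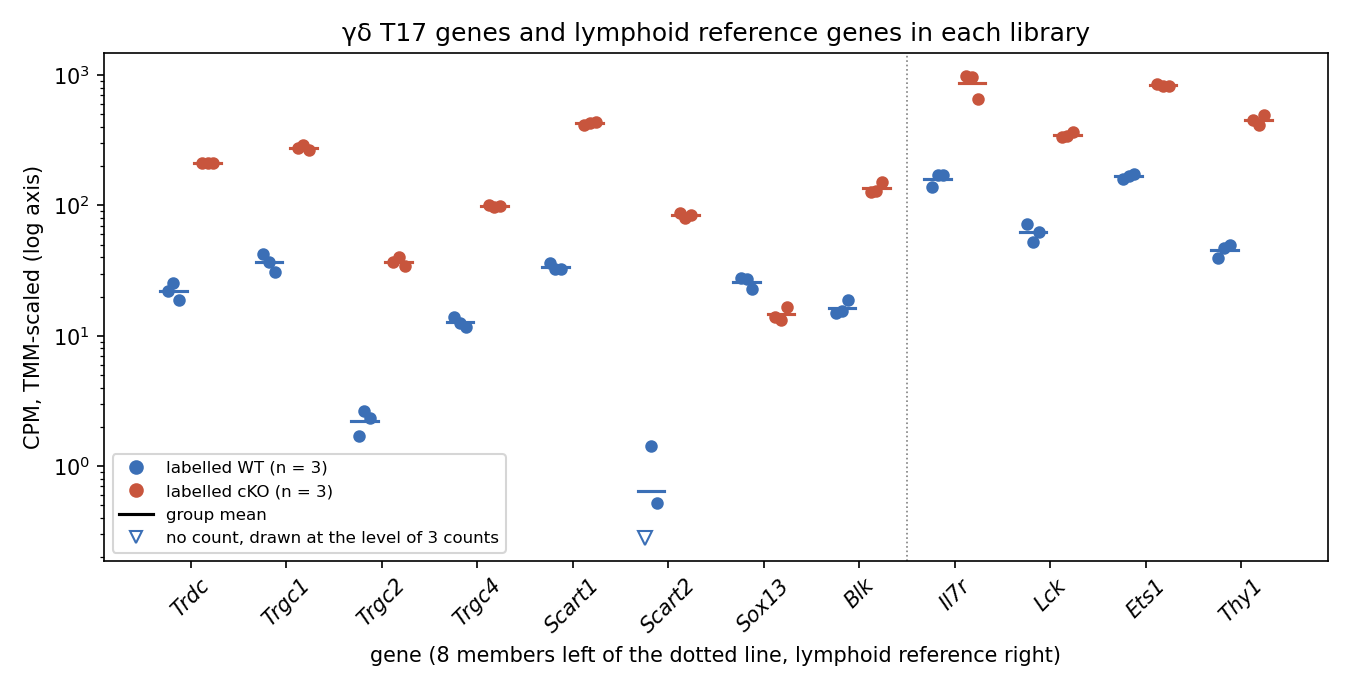
Level of each member and of the 4 lymphoid reference genes in each library, as TMM-scaled CPM on a log axis; points are libraries (n = 3 per group) and bars are group means. 7 members lie higher in the libraries labelled cKO, as do the 4 reference genes, while Sox13 lies lower, and Scart2 has no count in 1 library labelled WT.

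Trdc, the single constant gene of the δ chain, read 21.9, 25.3 and 19.0 CPM in the libraries labelled WT and 212, 212 and 211 CPM in those labelled cKO. Means of 22.1 ± 3.17 and 211.8 ± 0.695 CPM (SD, n = 3 each) were 9.60-fold apart, and the libraries labelled cKO were nearly identical. Their SD is smaller than the counting error of 1532, 1499 and 2629 counts, so it does not measure biological spread. Relative to the lymphoid genes, Trdc stood at 24.6%, 27.6% and 19.4% of their geometric mean in the libraries labelled WT and at 35.7%, 36.7% and 37.8% in the others, 1.55-fold higher with no overlap. The share of all genes without overlap was computed with TMM scaling only, so ratios to the lymphoid genes, here and below, have no such background. The variable segment Trdv5 lies on the opposite strand and overlaps Trdc by 207 bases, so without strand information some reads could belong to either.

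Trgc1 and Trgc4 behaved alike. Trgc1 read 42.5, 36.8 and 31.1 CPM in the libraries labelled WT against 277, 290.5 and 266 CPM in the others, 7.56-fold higher on means of 36.8 ± 5.71 and 277.9 ± 12.1 CPM (SD, n = 3 each). Trgc4 read 14.01, 12.4 and 11.7 CPM against 101, 96.4 and 99.7 CPM, 7.78-fold higher. Both are the constant region of a γ chain and differ in the variable segments they are joined to. Per lymphoid RNA the difference was small: Trgc1 stood at 47.7%, 40.0% and 31.8% of the reference in the libraries labelled WT and at 46.6%, 50.2% and 47.7% in the others, and the groups overlapped. For Trgc4 the values were 15.8%, 13.6% and 12.001% against 16.98%, 16.7% and 17.8%, a 1.25-fold difference without overlap. Across the 6 libraries their profiles were the closest of any pair of members (Euclidean distance 0.197 in centred log2 CPM).

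Trgc2 was the lowest of the 4 constant genes and differed most. It read 1.69, 2.63 and 2.33 CPM in the libraries labelled WT, from 109 counts in all, and 36.5, 40.2 and 34.4 CPM in the others, from 976 counts. That was a 16.7-fold difference of means with TMM scaling and 2.69-fold per lymphoid RNA (1.95%, 2.89% and 2.41% of the reference against 6.16%, 6.96% and 6.15%). The share of all γ constant counts needs no scaling, since it is taken within a library. Trgc2 held 4.34% ± 1.24 of them in the libraries labelled WT and 8.86% ± 0.424 in the others (SD, n = 3 each), while Trgc1 held 70.4% ± 2.54 and 66.5% ± 0.786, and Trgc4 24.5% ± 0.977 and 23.7% ± 1.24. The shares of Trgc1 and Trgc2 did not overlap between the groups, and those of Trgc4 did. The identity of Trgc1 and Trgc2 shown above bears on this split, and its part in it was not tested.

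The variable segments were no members and say which receptors the constant genes could belong to. Among δ segments, Trdv4 took most counts in every library, and among γ segments Trgv6, its known partner in γδ T17 cells, differed most between the groups of those tested. The last 90 coding bases of both are printed to show the segments that were counted, with the codon of the conserved cysteine that ends the framework in capitals.
Trdv4: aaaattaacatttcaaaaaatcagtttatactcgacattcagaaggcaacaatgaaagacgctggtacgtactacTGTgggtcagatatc
Trgv6: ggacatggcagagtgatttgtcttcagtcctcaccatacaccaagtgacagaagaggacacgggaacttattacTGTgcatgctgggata
No 50-base window of either occurred in another transcript, so their counts are not subject to the exchange described for Trgc1 and Trgc2.

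Trdv4 read 3.95, 8.22 and 2.49 CPM in the libraries labelled WT and 63.2, 61.2 and 63.6 CPM in the others (log2 fold change 3.67, adjusted p = 7.82e-06, edgeR). Scaled to the lymphoid genes its log2 fold change was 1.03 (adjusted p = 0.0140, edgeR), so it rose under both scalings. Trgv6 read 0.658, 0.343 and 0.673 CPM against 11.1, 12.3 and 15.4 CPM, with log2 fold changes of 4.53 (adjusted p = 7.71e-07) and, against the lymphoid genes, 1.92 (adjusted p = 0.00202), both edgeR. Trgv4, the other segment common in γδ T17 cells, also rose under both, by 3.80 (adjusted p = 6.10e-06) and 1.18 (adjusted p = 0.0381, edgeR). In the libraries labelled WT, Trgv6 had 7, 6 and 13 counts and Trgv4 9, 8 and 12. Both passed the filter on low counts through the libraries labelled cKO, where they are high. Variable segments are also read from the same transcripts as the constant genes, which were selected on this comparison. These p-values are therefore no independent evidence of a difference. The γ segment with the most counts, Trgv5, known from the γδ T cells of the epidermis, rose with TMM scaling (2.60, adjusted p = 6.75e-05, edgeR) but had a log2 fold change of -0.00 against the lymphoid genes (adjusted p = 0.996, edgeR). Trgv2, Trdv5 and Trgv1 had values of 0.88, 0.78 and -0.48 there and did not pass the test (adjusted p = 0.139, 0.157 and 0.426, edgeR). Trgv7, the segment of intraepithelial γδ T cells of the gut, was too low to be tested, at 0.376, 0.285 and 0.570 CPM in the libraries labelled WT and 0, 1.56 and 1.12 CPM in the others.

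**Figure D2:**
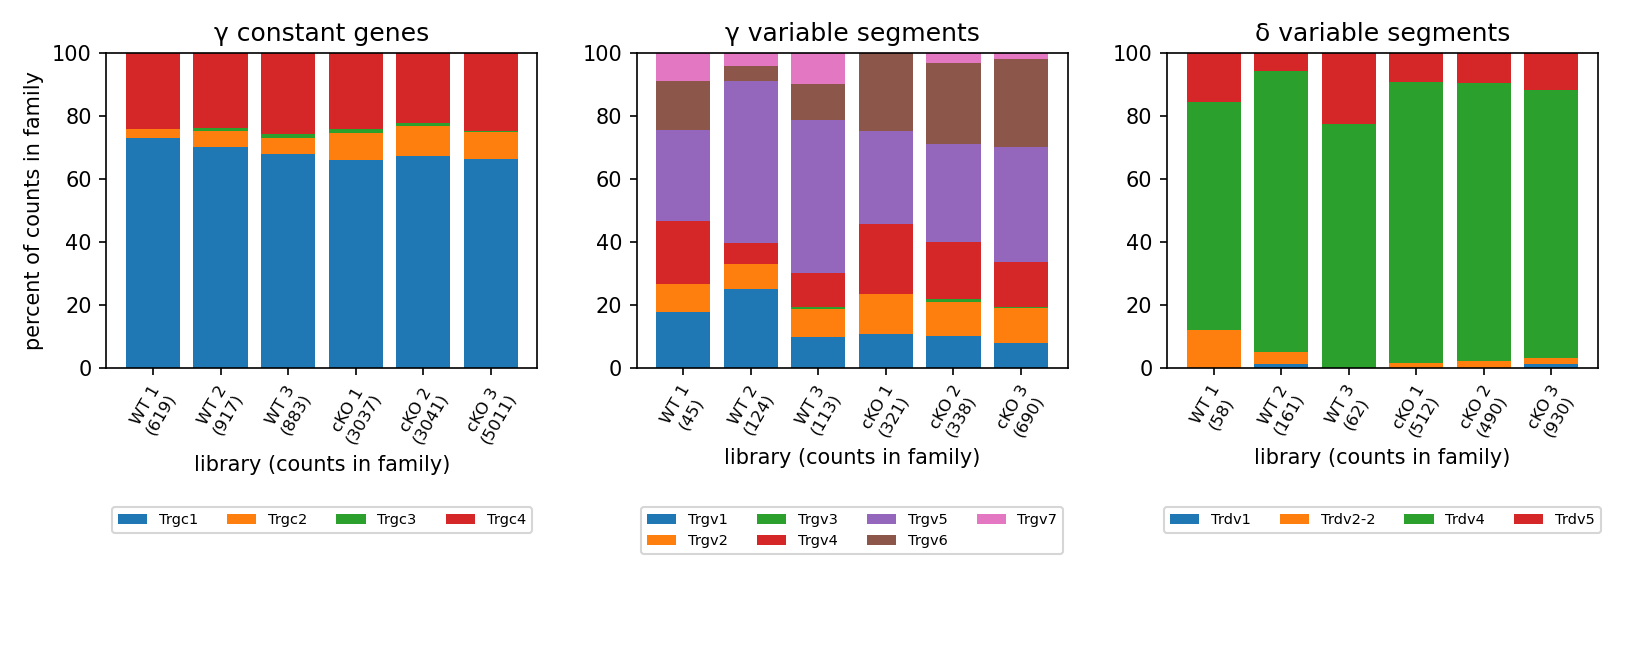
Share of each gene in the counts of its family, in percent, for γ constant genes, γ variable segments and δ variable segments; each bar is 1 library and the number under it is the family's total count. Trgv6 takes a larger share in each library labelled cKO than in any labelled WT, and Trdv4 leads the δ segments throughout.

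Within the γ variable counts, Trgv6 took 4.84% to 15.6% in the libraries labelled WT and 24.9% to 27.8% in those labelled cKO, with means of 10.6% ± 5.41 and 26.2% ± 1.498 (SD, n = 3 each). Trgv5 averaged 43.1% and 32.2%, Trgv1 17.5% and 9.54%, and Trgv4 12.4% and 18.3%, and for each of them the groups overlapped. These shares rest on few reads in the libraries labelled WT, where the γ variable counts were 45, 124 and 113 against 321, 338 and 690. Trdv4 took 79.8% ± 8.75 of δ variable counts in the libraries labelled WT and 87.5% ± 2.12 in the others (SD, n = 3 each), and the ranges overlapped. Per Trdc count, Trdv4 gave 18.03%, 32.5% and 13.1% in the libraries labelled WT and 29.8%, 28.8% and 30.1% in the others, which also overlapped. Per Trgc1 count, Trgv6 gave 1.55%, 0.932% and 2.17% against 3.996%, 4.24% and 5.78%, with no overlap.

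Scart1 and Scart2 encode scavenger receptors of the cysteine-rich family whose transcripts mark subsets of γδ T17 cells, Scart1 those with Vγ6 and Scart2 those with Vγ4. They are neighbours on chromosome 7, Scart1 at chr7:140218267-140231145 (+) and Scart2 at chr7:140247284-140300736 (+), with 16138 bases between them. Their promoters are shown because both genes read higher and lie side by side. Each is the 250 bases before the start in RefSeq (GRCm38.p6), chr7:140218017-140218266 for Scart1 and chr7:140247051-140247300 for Scart2, plus strand, with capitals for a match to a motif searched.
Scart1: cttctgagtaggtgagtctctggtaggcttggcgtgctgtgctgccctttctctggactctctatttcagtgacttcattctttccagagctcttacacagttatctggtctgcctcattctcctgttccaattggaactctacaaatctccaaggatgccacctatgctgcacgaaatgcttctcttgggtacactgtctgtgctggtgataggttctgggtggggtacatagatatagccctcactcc
Scart2: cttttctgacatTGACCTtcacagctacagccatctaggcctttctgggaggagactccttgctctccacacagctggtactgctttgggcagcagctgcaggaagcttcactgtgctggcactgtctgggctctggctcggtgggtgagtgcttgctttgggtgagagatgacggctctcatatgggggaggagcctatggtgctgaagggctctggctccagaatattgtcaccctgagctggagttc
The motifs, searched on both strands, were TGANTCA (AP-1, the family of BATF), AGGTCA (a nuclear receptor half-site), AACAAT (SOX), AGGTGT (T-box) and ACAGGAA (ETS). Scart2 held a single match, AGGTCA on the reverse strand beginning 238 bases before the start, and Scart1 held none. Of 27025 promoters of this length, 13.84% held AGGTCA, 6.868% TGANTCA, 9.647% AACAAT, 11.99% AGGTGT and 7.045% ACAGGAA. No motif overlapped another in these windows. A promoter was found for 3 of the 8 members, the other being Sox13, which held no match.

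Scart1 read 36.4, 32.7 and 32.4 CPM in the libraries labelled WT and 415, 425 and 436 CPM in the others, 12.6-fold higher on means of 33.8 ± 2.22 and 425.3 ± 10.7 CPM (SD, n = 3 each). Per lymphoid RNA it was 2.02-fold higher, at 40.8%, 35.6% and 33.2% of the reference against 69.9%, 73.4% and 78.0%. Its ratio to Trdc counts was 129% to 171% in the libraries labelled WT and 196% to 207% in the others, so Scart1 was higher even against another member, without overlap.

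Scart2 was close to absent from the libraries labelled WT. It had 0, 25 and 10 counts there, or 0, 1.43 and 0.518 CPM, and 633, 566 and 1059 counts in the others, or 87.5, 80.2 and 85.0 CPM. With 0 counts, replicate 1 of the libraries labelled WT allows up to 0.282 CPM (3 counts). The ratio of means was 129.9, and it rests on 35 counts in the libraries labelled WT. The fitted log2 fold change of 6.84 moved to 7.96 without the library labelled WT that held 25 of them, replicate 2, and to 6.44 without replicate 1. Per Scart1 count, Scart2 gave 0%, 4.37% and 1.60% in the libraries labelled WT and 21.1%, 18.9% and 19.5% in the others, so the neighbours did not move in proportion. Against the lymphoid reference the Scart2 difference was 5.34 on the log2 scale and 4.59 with a prior of 2 counts in place of 0.5, since a library with no count takes its value from the prior. With the prior of 0.5 counts it was 3.96 without replicate 1 of the libraries labelled WT and 6.41 without replicate 2.

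Sox13 went the opposite way. This factor of the SOX family is needed for a subset of γδ T17 cells to develop, and it lies at chr1:133382303-133424377 (-). It read 27.9, 27.4 and 22.8 CPM in the libraries labelled WT and 13.96, 13.2 and 16.5 CPM in the others, 1.79-fold lower. Every library labelled cKO was below every library labelled WT. Per lymphoid RNA Sox13 was 11.1-fold lower, at 31.3%, 29.9% and 23.4% of the reference against 2.36%, 2.29% and 2.97%. Most genes read lower on this scale: the median fitted log2 fold change of all genes tested was -2.61, against -3.46 for Sox13. Against Trdc its counts were 127%, 108% and 120% in the libraries labelled WT and 6.59%, 6.20% and 7.84% in the others. Of 5 other SOX genes tested, 4 fell and none rose with TMM scaling: Sox9, an epithelial stem cell factor, from 111 ± 11.4 to 2.26 ± 0.407 CPM (adjusted p = 1.23e-10, edgeR), Sox4 from 39.8 to 4.91 CPM, Sox6 from 7.93 to 0.246 CPM and Sox10 from 7.62 to 0.0268 CPM. Sox13 is also made outside lymphocytes, and the 12 epithelial genes went from 1.60% to 1.70% of counts down to 0.0444% to 0.0525% along with it. Their part in the Sox13 difference was not tested.

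Blk, a kinase of the SRC family that acts in γδ T17 development and is also made by B cells, lies at chr14:63372836-63417037 (-). It read 14.95, 15.5 and 18.7 CPM in the libraries labelled WT and 128, 129.7 and 149.96 CPM in the others, 8.28-fold higher on means of 16.4 ± 2.02 and 135.7 ± 12.4 CPM (SD, n = 3 each). Per lymphoid RNA it was 1.33-fold higher, at 16.8%, 16.9% and 19.2% of the reference against 21.5%, 22.4% and 26.8%, with no overlap. Blk per Trdc count was 68.2%, 61.4% and 98.6% against 60.2%, 61.0% and 71.1%, and overlapped. B cell genes went the other way: of 12 tested, 11 fell and none rose (edgeR), and the list's share dropped from between 1.41% and 1.43% of counts to between 0.0845% and 0.0949%. Cd79a, a B cell receptor subunit, fell from 34.7 ± 2.85 to 1.53 ± 0.261 CPM (SD, n = 3 each; adjusted p = 7.26e-09, edgeR). The part of B cells in the Blk values was not tested. Among 5 other SRC kinases, Lyn (log2 fold change 0.52, adjusted p = 0.00130) and Fyn (0.43, adjusted p = 0.0181) rose, while Src, Yes1 and Fgr fell (edgeR). All 5 fell against the lymphoid genes, as did 89% of all genes tested.

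Against the lymphoid genes the 8 members fell into 3 sets. Trgc1, Trgc4, Blk and Trdc, with log2 differences of 0.29, 0.33, 0.42 and 0.64, lay inside the span of the 4 reference genes' own differences, which ran from -0.32 for Ets1 to 0.68 for Thy1. Scart1 (1.02), Trgc2 (1.43) and Scart2 (5.34) lay above it, and Sox13 (-3.47) lay below. The upper edge of the span is Thy1 alone, since Il7r, Lck and Ets1 had -0.21, -0.15 and -0.32. Which members count as inside therefore depends on Thy1. With Thy1 left out of the reference, Trgc1, Trgc4, Blk and Trdc had differences of 0.52, 0.55, 0.64 and 0.86. With all 4 reference genes, the median of the 8 was 0.53. With this scaling the median over all genes tested was -2.61, against 0.02 with TMM factors, and 1.54% of genes were called higher and 89% lower (edgeR). Of the reference genes, Il7r varied most, at 982, 973 and 659.8 CPM in the libraries labelled cKO. The most different pair of profiles was Scart2 and Sox13, at a distance of 11.4. The 8 genes therefore did not move as a single set under either scaling.

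**Figure D3:**
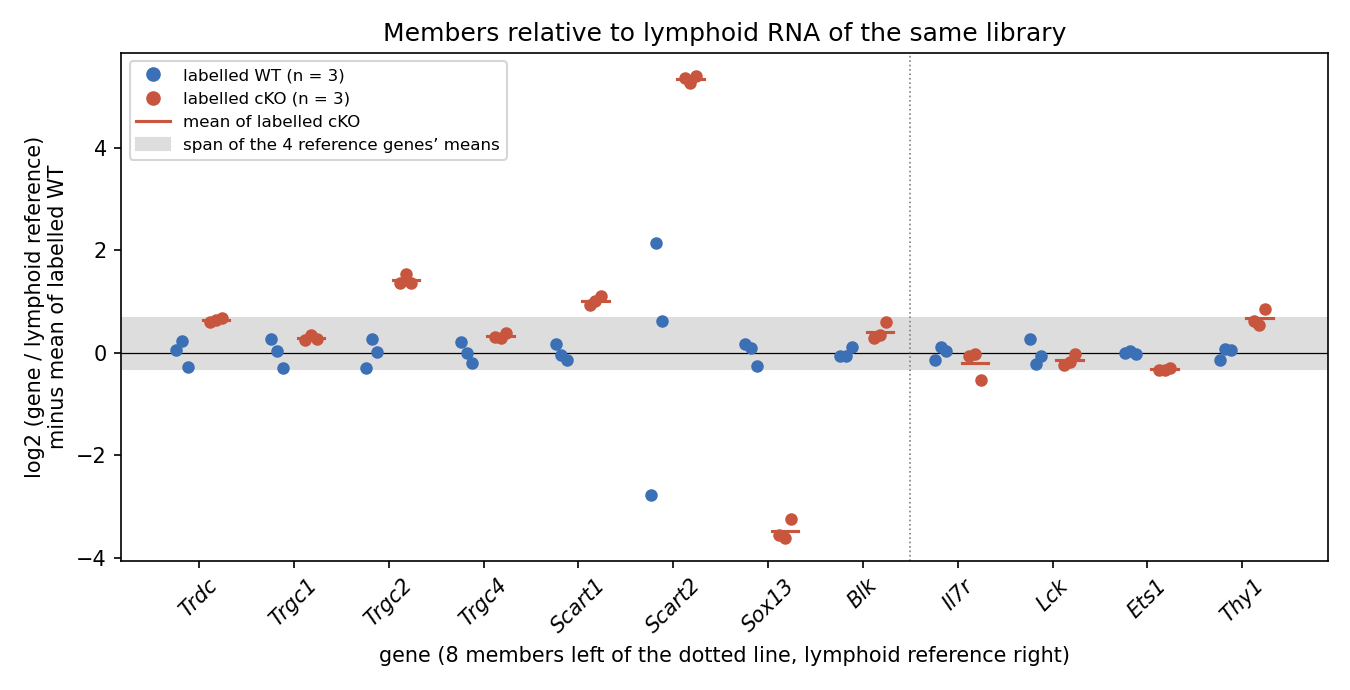
Log2 ratio of each gene to the geometric mean of Il7r, Lck, Ets1 and Thy1 in the same library, minus the mean of the libraries labelled WT; points are libraries (n = 3 per group) and the grey band runs from -0.32 to 0.68, the span of the reference genes' own means. Trdc, Trgc1, Trgc4 and Blk average inside the band, Trgc2, Scart1 and Scart2 above it and Sox13 below it. The upper edge of the band is Thy1 alone.

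Levels of different genes can be compared only per length, here as CPM per kilobase of annotated exon. In the libraries labelled cKO the order was Trgc1 (300.8), Scart1 (110.4), Trgc4 (100.5), Trdc (54.8), Blk (50.3), Trgc2 (40.5), Scart2 (15.2) and Sox13 (3.38). Trdc and Blk overlapped there, and the other neighbours did not. In the libraries labelled WT it was Trgc1 (39.8), Trgc4 (12.9), Scart1 (8.78), Blk (6.08), Sox13 (6.04), Trdc (5.71), Trgc2 (2.43) and Scart2 (0.117), with Blk, Sox13 and Trdc overlapping. Scart1 and Trgc4 thus changed places, as did Sox13 and its neighbours.

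The wider type 17 programme was read from 26 genes that are not members. With TMM scaling 22 rose, 2 fell and 2 did not pass the test (edgeR), with a median log2 fold change of 2.05. The effector cytokine Il17a rose from 7.53 ± 1.38 to 250.1 ± 6.82 CPM (SD, n = 3 each; log2 fold change 5.04 with SE 0.145, adjusted p = 5.50e-11, edgeR). Il23r, the receptor that sustains type 17 cells, rose from 16.7 to 311 CPM, the chemokine receptor Cxcr6 from 371 to 3645 CPM, the membrane protein Tmem176b from 315 to 1767 CPM and Actn2, encoding an actinin, from 7.28 to 105 CPM. The cytokine Il17f rose from 14.2 to 60.4 CPM and the chemokine receptor Ccr6 from 51.1 to 87.0 CPM. Sox4 fell by 3.00 on the log2 scale, and Ramp1, part of a neuropeptide receptor, fell by 0.73. Maf, a factor required by γδ T17 cells, had 0.31 (adjusted p = 0.0995) and Etv5 -0.10 (adjusted p = 0.867, edgeR).

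Against the lymphoid genes, 6 of the 26 rose, 15 fell and 5 did not pass the test (edgeR), with a median of -0.58. Those that rose under both scalings were Il17a (2.41), Ltb4r1 (1.65), Il23r (1.58), Actn2 (1.22), Cxcr6 (0.66) and Il18r1 (0.66). Another 11 rose with TMM factors and fell against the lymphoid genes, among them Il17f (-0.55) and Ccr6 (-1.86). Il17a and Il17f, neighbouring cytokine genes, thus differed in direction under this scaling. Il17a counts were 29.2%, 28.2% and 47.8% of Trdc counts in the libraries labelled WT and 118%, 121% and 115% in the others. The list shares Il23r, Zbtb16, Ccr6 and Il1r1 with ILC3s, of whose 15 marker genes all rose with TMM scaling, while 4 rose and 7 fell against the lymphoid genes (edgeR).

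**Figure D4:**
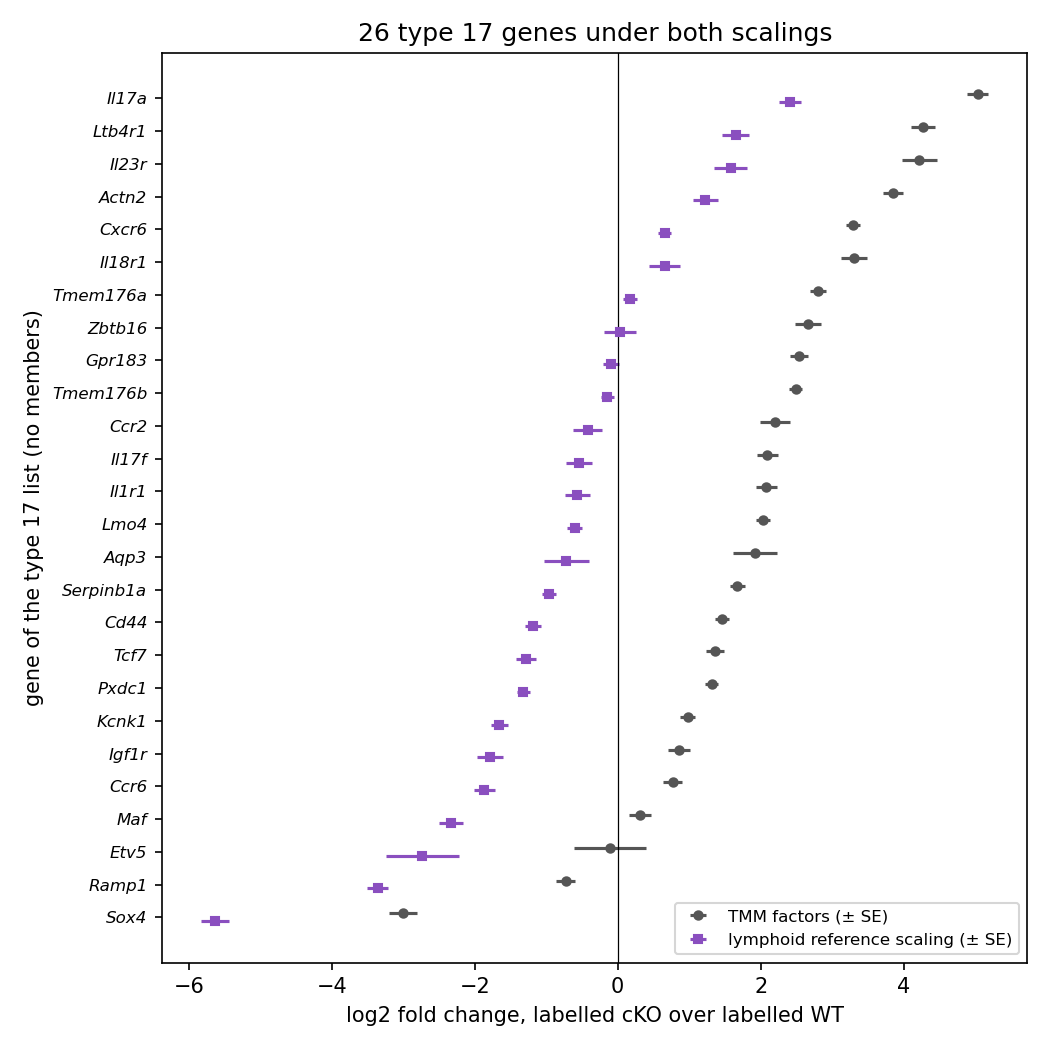
Log2 fold change of the 26 type 17 genes, libraries labelled cKO over labelled WT, with TMM factors (circles) and scaled to the lymphoid genes (squares); bars are standard errors. With TMM factors 22 of 26 rose, and against the lymphoid genes 6 rose and 15 fell. Of all genes tested, 1.54% rose and 89% fell against the lymphoid genes.

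Genes of other T cells were read alongside. The CD3 complex, which carries any T cell receptor to the surface, rose in 5 of 5 genes with TMM scaling, Cd3e from 37.3 ± 3.79 to 282 ± 7.94 CPM and Cd3g from 27.1 ± 5.38 to 327.8 ± 8.10 CPM (SD, n = 3 each; adjusted p = 5.14e-10 and 9.25e-10, edgeR). Against the lymphoid genes 2 rose, Cd3g (0.96) and Cd247 (1.01), and Cd3e (0.29, adjusted p = 0.0515) and Cd3d (0.20, adjusted p = 0.265) did not pass the test (edgeR). Of 12 genes listed for αβ T cells, 11 rose with TMM factors, and 4 rose and 5 fell against the lymphoid genes. The shares over all genes tested were 1.54% higher and 89% lower against the lymphoid genes. Trac, the α chain constant gene, rose from 16.1 to 54.9 CPM but fell by 0.87 against the lymphoid genes (adjusted p = 0.00127, edgeR), while Trbc1 rose from 75.1 to 502.4 CPM and had 0.11 there (adjusted p = 0.345, edgeR). Trbc2 rose under both scalings, from 99.1 to 731.7 CPM and by 0.25 against the lymphoid genes (adjusted p = 0.0253, edgeR), so the αβ constant genes did not share a direction per lymphoid RNA.

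Of 20 genes of interferon-γ-producing γδ T cells and intraepithelial lymphocytes, 13 rose and 2 fell with TMM factors, and 3 rose and 13 fell against the lymphoid genes (edgeR). For this and the lists below, the shares over all genes tested were 30.2% higher and 34.1% lower with TMM factors. Against the lymphoid genes they were 1.54% higher and 89% lower. The factor Tbx21 rose under both scalings (4.50 and 1.87), as did the cytokine Ifng (3.22 and 0.60) and the receptor chain Il2rb (3.32 and 0.69). Cd8a, present on many intraepithelial lymphocytes, fell from 4.63 to 0.227 CPM, and the granzyme Gzma from 112 to 65.4 CPM (adjusted p = 8.76e-05 and 0.000108, edgeR). Of 16 genes listed for signalling close to the receptor, regulators included, 15 rose with TMM factors and only the kinase Syk fell, from 25.9 to 0.90 CPM. Against the lymphoid genes Zap70 alone rose (0.43, adjusted p = 0.0123, edgeR) and 10 fell. A further list held butyrophilin-related and class I-like genes, some of which select or bind γδ receptors. Among the 8 tested, the butyrophilin-like gene Btnl1, made by gut epithelium, fell from 79.2 to 1.08 CPM, and the class I-like H2-T3 from 68.5 to 7.17 CPM (edgeR). In all, 2 of these 8 rose and 5 fell with TMM factors, and 1 rose and 7 fell against the lymphoid genes. The class I-like ligand H2-T10 rose under both scalings (4.04 and 1.40), while H2-T22 rose with TMM factors (1.37) and fell against the lymphoid genes (-1.26, adjusted p = 8.08e-07, edgeR). Of 8 other scavenger receptor genes tested, 2 rose, the lymphocyte receptors Cd6 (2.27) and Cd5 (2.09), and 5 fell, including epithelial Dmbt1 from 936 to 87.2 CPM (edgeR, TMM factors). Against the lymphoid genes none of the 8 rose and 6 fell, and Cd6 (-0.38, adjusted p = 0.176) and Cd5 (-0.54, adjusted p = 0.158) did not pass the test (edgeR).

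The genes whose profile over the 6 libraries lay nearest to that of Trdc, by Euclidean distance of centred log2 CPM among 11380 candidates, were Il22 (0.207), Nfkbid (0.244), Ctla4 (0.324), Sun2 (0.324) and Ubb (0.335). Il22, the main ILC3 cytokine, went from 593 ± 45.7 to 5408 ± 279 CPM (SD, n = 3 each). Nearest to the mean of the members were Ston2 (0.240), Ly6a (0.242), Cdh10 (0.272), Gimap9 (0.315) and Dok1 (0.327). With 6 libraries in 2 groups, these distances mostly compare the size of the difference between the groups.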

How the data were processed

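Bulk RNA was measured in 6 mouse libraries, 3 per genotype label, which the labels call biological replicates. The authors deposited raw counts per gene symbol, with mm10 named as build per the submitters' processing notes. How reads were aligned and counted, with which annotation and whether by strand, is not given in the sources used here. Every count column matched a sample. Smart-seq2 has no molecular identifiers, so floors and intervals cover counting error only, and 3 counts equal 0.155 to 0.425 CPM.

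Counts were fitted in edgeR 4.0.16 (R 4.3.3): filterByExpr with a minimum count of 10 left 15261 genes, followed by TMM factors, glmQLFit (robust) and glmQLFTest with group as the only term, two-sided, Benjamini-Hochberg over all genes tested, threshold 0.05. The same fit was repeated with factors from Il7r, Lck, Ets1 and Thy1. Ratios to these genes used a prior of 0.5 counts. Fold changes are cKO over WT as labelled. The fitting script was tested on simulated data. Gene locations and lengths are from GENCODE M21 (GRCm38, the same build), where 8 of 8 members matched through RefSeq synonyms, and coding alignments used MAFFT 7.526.

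Some genes of the lists are not reported here and were left out of the list counts. Members, lists and tests were chosen with earlier results of these data known. Named were the members, the reference genes, Batf, the variable segments, the nearest profiles and, from each list, up to 4 genes per direction with the lowest p plus fixed defining genes; genes of the type 17 list that rose under both scalings, Ifng and Ddx3y were named after their values were seen. Alternatives were DESeq2 1.42.0, library totals, both reference scalings, no filter, a replicate block and leaving out each library.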

Additional observations from a re-analysis of the deposited data

How the results depend on the processing

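The scaling had the largest effect of the alternatives run. With TMM factors, 4612 genes were higher and 5209 lower in the libraries labelled cKO; with library totals 3052 were higher, with the lymphoid genes 235 were higher and 13579 lower, and with 8 pan-leukocyte genes 304 and 13270. Of the 26 type 17 genes 22 were higher and 2 lower with TMM factors, 6 and 15 with the lymphoid genes and 7 and 13 with the pan-leukocyte genes; of 144 genes of the other lists 67 and 66, 21 and 104, and 27 and 102. Changes of sign were followed only for Il17a, Il17f, Il23r, Ccr6, Maf, the variable segments tested and the members. Of these, the log2 fold changes that turned negative with the lymphoid genes were Il17f (-0.55), Ccr6 (-1.86), Maf (-2.33), Trdv2-2 (-0.45), Trgv1 (-0.48) and Trgv5 (-0.0021). With the pan-leukocyte genes they were Il17f (-0.34), Ccr6 (-1.67), Maf (-2.13), Trdv2-2 (-0.23) and Trgv1 (-0.27). With library totals Maf turned negative (-0.074). Other genes, among them Batf and Trac, also turned negative with the lymphoid genes. The cause was not tested.

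Leaving out each library gave 3603 to 4705 higher and 5149 to 5451 lower genes, and 22 to 23 higher and 2 lower type 17 genes; the ranges over the other lists were 63 to 68 and 64 to 67. Maf passed the test (0.44) without replicate 2 of the libraries labelled WT, and Trdv2-2 (2.99) without replicate 1. The median of the 8 members against the lymphoid genes, 0.53, ran from 0.47 to 0.57 without each library and from 0.42 to 0.75 without each reference gene (0.42 without Ets1, 0.75 without Thy1), and was 0.73 against the pan-leukocyte genes. The direction of each member held in every alternative run.

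Same-numbered replicates did not deviate together (r = 0.00101, 0.00810 and 0.0129), so the numbers were not taken as pairs. With a replicate block 4603 genes were higher and 5091 lower, with 23 and 2 type 17 genes; the block brought Maf past the test (0.31, adjusted p = 0.0212, edgeR). Replicates 1 and 2 labelled cKO were closest to each other (chi-square per gene 2.36, against 14.8 to 24.2 for the other pairs within a group); with them averaged as 1 library, 3665 genes were higher and 5202 lower. Low counts of the variable segments and of Scart2 limit what can be said of them in the libraries labelled WT.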
